A study of Homo sapiens with 12 samples.

Results

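The HOX genes of motor neuron cultures exposed to the organochlorine pesticide cis-chlordane were examined in RNA-seq counts. Members were the rows of the count table whose symbol is HOXA, HOXB, HOXC or HOXD followed by digits only, so that antisense transcripts were left out, and 39 of 28278 gene rows met this rule. The cells were differentiated for 16 days from a line of human embryonic stem cells, WA09-Islet1-GFP, of wild-type genotype, in which GFP is expressed with the motor neuron transcription factor Islet1. The cultures then received cis-chlordane or a matching volume of the solvent DMSO for 16 hours, were dissociated and were sorted by FACS on GFP. This gave 4 groups of 3 libraries, namely control GFP-positive, treated GFP-positive, control GFP-negative and treated GFP-negative. The sample labels give the dose as 10 µM, while the published methods name another concentration. The title of each treated library starts with "untreated", and the treatment entry, which matches the column names, was used instead. All groups come from a single stem cell line, a biological replicate is an independent thaw of frozen cells, and batches were used only when the share of Islet1+/MAP2+ cells was high enough.

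HOX genes encode homeodomain transcription factors that give cells along the head-to-tail axis their positional identity. They are numbered by paralog group along each cluster, and genes with low numbers, at the 3′ end, are expressed up to the hindbrain, those with middle numbers up to the cervical and brachial spinal cord, and those with high numbers in the thoracic, lumbar and sacral cord. In motor neurons they set the segmental subtype together with TALE cofactors of the PBX and MEIS families, and in stem cell cultures the level depends on caudalizing signals such as retinoic acid, FGF and GDF11.

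Library totals lay between 23414935 and 38347050 counts, and levels are given as CPM, counts relative to library size, after TMM scaling over all 12 libraries. ISL1, the gene whose expression the reporter follows, had 65.7 ± 3.12 CPM (mean ± SD, n = 3 libraries in this and each following value of this form) in control GFP-positive and 2.57 ± 0.203 CPM in control GFP-negative libraries. After treatment ISL1 was at 11.99 ± 3.71 CPM in the GFP-positive libraries (log2 fold change -2.38, SE 0.20, adjusted p = 6e-12). Summed levels of the 7 motor neuron markers ranged from 1709 to 2308 CPM in control and 536 to 860.3 CPM in treated GFP-positive libraries, and from 271 to 299 and 101 to 122 CPM in the GFP-negative ones. The 4 cycling cell markers summed to 55.4 to 84.9 CPM in control and 29.9 to 33.9 CPM in treated GFP-positive libraries, against 426 to 554 and 138 to 182 CPM in the GFP-negative ones. The 6 neural progenitor markers reached 2859 to 3237, 2319.5 to 3140.3, 5850.4 to 7804 and 7183 to 8230.4 CPM in the same order of groups, and the 5 mesenchyme markers 245 to 308, 48.9 to 78.5, 734 to 854 and 462 to 743 CPM. The 6 neuron markers summed to 14014 to 17023, 6943 to 8685, 7050.1 to 7647 and 4125 to 4970.3 CPM, the 6 spinal interneuron markers to 7.18 to 7.93, 0.45 to 1.29, 27.5 to 32.003 and 4.28 to 7.71 CPM, and the 5 glia markers to 2.76 to 3.26, 0.609 to 0.973, 28.7 to 43.2 and 5.03 to 8.4 CPM. The members of the progenitor list did not move together in GFP-negative cells, where NES (-1.26) and SOX1 (-1.55) were called lower after treatment, and VIM, which holds most of the sum, had a log2 fold change of 0.71, under the 2-fold limit. Of 3 pluripotency markers, POU5F1 and NANOG were at or under 3 counts in every library. LIN28A fell from 155 ± 7.46 CPM to 48.3 ± 4.98 CPM in GFP-positive (log2 fold change -1.62, SE 0.16, adjusted p = 3e-10) and from 184 ± 19.1 CPM to 83.3 ± 15.5 CPM in GFP-negative cells (log2 fold change -1.16, SE 0.18, adjusted p = 0.0012). Most of these marker sums moved with both treatment and sort. The progenitor sums overlapped between treated and control libraries in both fractions, and the mesenchyme sums did so in GFP-negative cells. The part of these markers in the HOX differences was not tested. In bulk samples, fewer cells of a type and less RNA per cell cannot be told apart.

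Promoter windows are shown for 1 gene of each cluster that lies in paralog groups 1 to 4, so that the start of genes that moved together can be read. Each window is 300 bases of GRCh38.p14 from RefSeq, from 250 bases before to 50 bases after the annotated start, 5′ to 3′ on the strand of the gene. Windows were matched for 20 of the 39 HOX genes. In the HOXB cluster only HOXB1 had a window, so none is given for HOXB2 to HOXB5 or HOXB9. Capitals mark matches to TGATNNAT, a site bound by HOX and PBX proteins together, or to CCAAT, on either strand. Printed windows lie at chr7:27102634-27102933 (minus strand, HOXA2), chr17:48530962-48531261 (minus strand, HOXB1), chr12:54016638-54016937 (plus strand, HOXC4) and chr2:176151300-176151599 (plus strand, HOXD4).
HOXA2: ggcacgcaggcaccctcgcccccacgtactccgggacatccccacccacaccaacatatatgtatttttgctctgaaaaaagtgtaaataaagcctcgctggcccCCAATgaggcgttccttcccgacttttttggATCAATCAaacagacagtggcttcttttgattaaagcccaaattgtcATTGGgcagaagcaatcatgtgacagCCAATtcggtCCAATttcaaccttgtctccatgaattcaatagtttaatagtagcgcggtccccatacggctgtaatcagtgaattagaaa
HOXB1: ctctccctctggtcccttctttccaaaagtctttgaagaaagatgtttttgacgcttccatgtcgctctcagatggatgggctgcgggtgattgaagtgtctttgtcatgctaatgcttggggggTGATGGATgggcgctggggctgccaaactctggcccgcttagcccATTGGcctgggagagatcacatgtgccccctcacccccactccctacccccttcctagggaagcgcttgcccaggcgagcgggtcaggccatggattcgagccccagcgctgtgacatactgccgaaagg
HOXC4: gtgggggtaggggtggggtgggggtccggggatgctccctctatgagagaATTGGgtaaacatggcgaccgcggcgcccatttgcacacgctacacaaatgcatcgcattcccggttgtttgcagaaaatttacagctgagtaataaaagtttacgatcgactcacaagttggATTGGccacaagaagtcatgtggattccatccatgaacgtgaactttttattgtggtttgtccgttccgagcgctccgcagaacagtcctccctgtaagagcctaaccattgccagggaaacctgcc
HOXD4: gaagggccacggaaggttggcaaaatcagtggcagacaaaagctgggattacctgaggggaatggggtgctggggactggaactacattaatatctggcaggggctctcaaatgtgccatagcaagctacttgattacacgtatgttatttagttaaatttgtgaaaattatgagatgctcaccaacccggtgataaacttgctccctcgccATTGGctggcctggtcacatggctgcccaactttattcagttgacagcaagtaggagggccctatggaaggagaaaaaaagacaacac

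TGATNNAT was found in the windows of 3 HOX genes, HOXB1 at -125, HOXA2 at -114 and HOXD11 at -67 relative to the start, that is in 11.1% of the 27 HOX windows and in 7.4% of all 35116 windows. CCAAT was more frequent, with a match in 18 of the 27 HOX windows (66.7%), which belong to 17 of the 20 genes, and in 34.6% of all windows. AGGTCA, the half-site of retinoic acid receptors, was in 0 of the 27 HOX windows and in 13.8% of all windows. TGATGNAA, an element bound by ATF4 with CEBP proteins, was in 1 HOX window (3.7%) and in 3.6% of all. A match describes letters in the window only. Of the 20 HOX genes, HOXA3 and HOXA10 have more than 1 window, with the most for HOXA3. Windows of genes without counts or never above 3 counts, such as HOXD12 and HOXA13, are included. The shares therefore do not describe only the genes that moved. The window listed for HOXC5 is that of HOXC4.

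HOX expression was almost entirely that of paralog groups 1 to 5. Of the 39 genes, 19 had a mean of at least 1 CPM in at least 1 group, and these include all 15 members of groups 1 to 5 and, from the 24 members of groups 6 to 13, HOXA7, HOXB8, HOXB9 and HOXD8. No counts were found in any library for HOXC11, HOXC12, HOXD10 and HOXD12, and 7 more genes (HOXA6, HOXA9, HOXA10, HOXA11, HOXA13, HOXB13 and HOXD11) never exceeded 3 counts. The floor of 3 counts equals 0.0794 to 0.129 CPM by library, and covers counting error only. The remaining 9 genes, HOXB6, HOXB7, HOXC6, HOXC8, HOXC9, HOXC10, HOXC13, HOXD9 and HOXD13, had some library above 3 counts but stayed under 1 CPM in every group mean, with 39 counts of HOXB7 (1.42 CPM) as their highest value.

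In control GFP-positive libraries the 39 genes summed to 1485 to 1629.8 CPM, and in control GFP-negative libraries to 979 to 1111 CPM, without overlap. HOXB contributed the most reads, with 62.8 ± 1.63% of HOX CPM in control GFP-positive libraries, followed by HOXD (14.8 ± 1.05%), HOXA (14.5 ± 0.983%) and HOXC (7.87 ± 0.436%), where HOXD and HOXA overlapped between libraries. After treatment the sums were 410.3 to 497 CPM in GFP-positive and 376 to 441 CPM in GFP-negative libraries. Each treated library lay below each control library of its fraction. The share of HOXB stayed between 60.99% and 66.9% over all 12 libraries.

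Genes were ranked against each other on CPM per kilobase of exon. In control GFP-positive libraries HOXB4, a cervical-level gene, was highest with 141 ± 15.9 CPM per kb, followed by the hindbrain gene HOXB2 with 88.3 ± 7.54 CPM per kb, and their library ranges did not overlap. A block of 7 genes came next, HOXB5, HOXB3, HOXD3, HOXC4, HOXD4, HOXA4 and HOXA3, from 52.7 down to 28.3 CPM per kb, and within this block each gene overlapped the next in the order. HOXA2, HOXA5, HOXD1, HOXB1 and HOXC5 lay between 7.77 and 0.692 CPM per kb. The 4 genes of the higher groups, HOXA7, HOXB8, HOXD8 and HOXB9, were the lowest, from 0.275 to 0.226 CPM per kb, and did not separate from one another. HOXB3 stood at 49.4 CPM per kb on the union of its exons but at 111 CPM per kb on the canonical transcript, so its place depends on the length used.

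**Figure D1:**
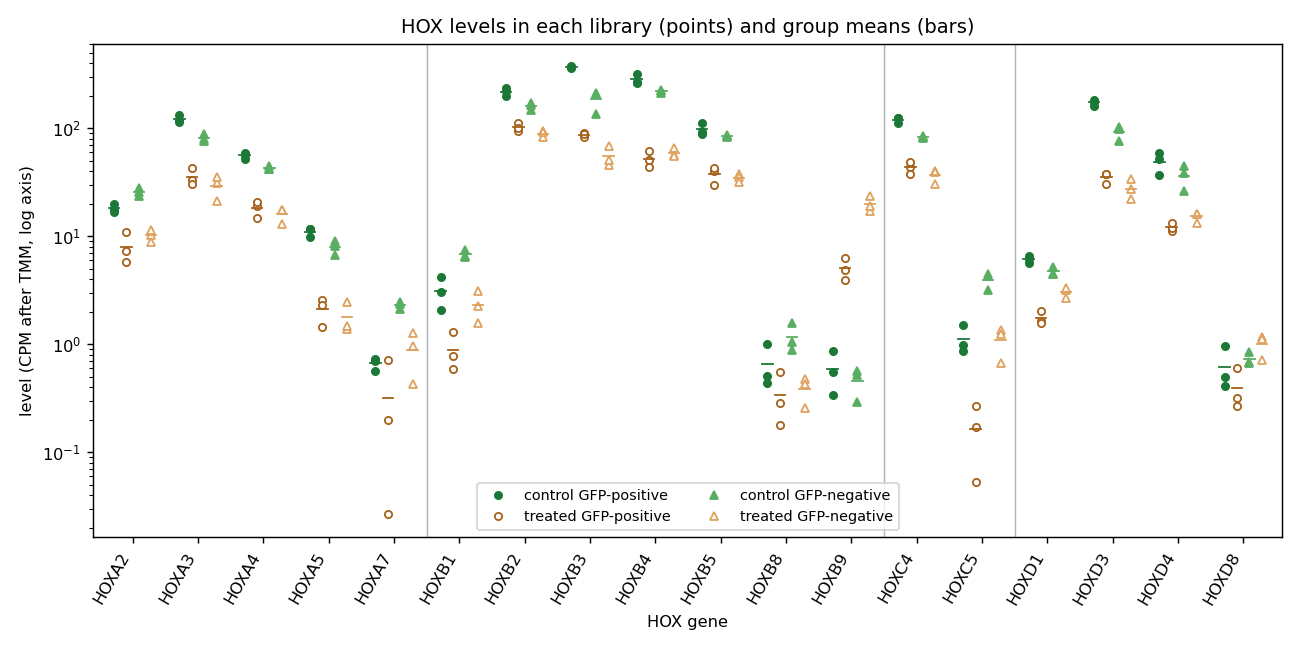
HOX genes with a mean of at least 1 CPM in some group are on the horizontal axis, ordered by cluster, and the vertical log axis gives CPM after TMM scaling, with 1 point per library and a short bar for each group mean (filled, control and open, treated, circles for GFP-positive and triangles for GFP-negative). Treated points lie below control points for the plotted genes of paralog groups 1 to 5, while HOXB9 rises from 0.457 to 19.98 CPM in GFP-negative libraries.

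By paralog group, group 4 held 47.05 ± 1.86% of the summed HOX CPM per kb in control GFP-positive libraries, group 3 22.6 ± 1.56%, group 2 17.4 ± 1.25%, group 5 10.8 ± 0.528% and group 1 1.89 ± 0.0853%. Together groups 1 to 5 made up 99.7 ± 0.0319% there and 99.3 ± 0.0753% in control GFP-negative libraries. In treated libraries the group 2 share was higher, at 27.4 ± 1.74% in GFP-positive and 25.04 ± 2.36% in GFP-negative libraries, while that of group 4 was lower, at 38.1 ± 0.648% and 40.03 ± 0.374%. Neither share overlapped between treated and control libraries of a fraction. The share of groups 1 to 5 was 98.3 ± 0.408% in treated GFP-positive and 94.1 ± 0.558% in treated GFP-negative libraries. These shares are descriptions, given without a test.

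The mean paralog number weighted by CPM per kb was 3.49 ± 0.0339 in control and 3.43 ± 0.0624 in treated GFP-positive libraries, and 3.53 ± 0.0237 in control and 3.67 ± 0.0377 in treated GFP-negative libraries. With HOXB9 left out, a choice made after seeing the data, the treated means were 3.36 ± 0.0576 and 3.41 ± 0.0349, so the higher value of the treated GFP-negative libraries rested on that gene. Without HOXB9 both treated groups were below their controls, at 3.48 ± 0.0334 and 3.53 ± 0.0236.

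**Figure D2:**
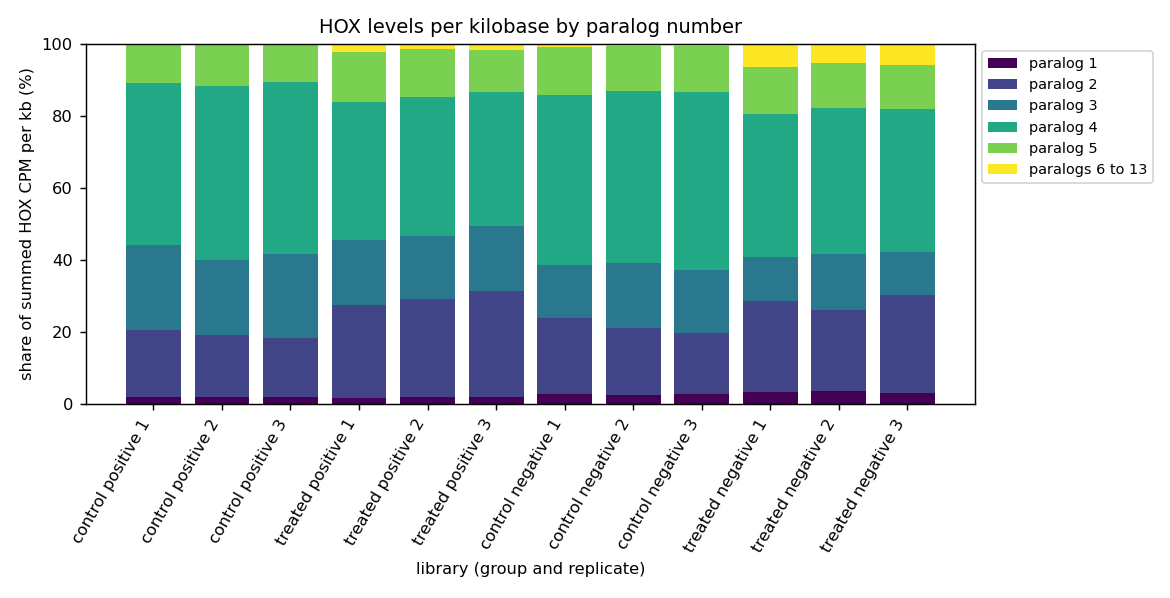
Stacked bars give, for each of the 12 libraries on the horizontal axis, the share in percent of the summed HOX CPM per kb held by paralog groups 1 to 5 and by groups 6 to 13 together. Group 4 is the largest segment in every library, and groups 6 to 13 are widest in the 3 treated GFP-negative libraries, where groups 1 to 5 fall to 94.1 ± 0.558%.

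Exposure of GFP-positive cells to cis-chlordane was followed by lower levels of all 15 HOX genes of groups 1 to 5 and by a higher level of HOXB9. Calls required, in the edgeR quasi-likelihood test, both an adjusted p below 0.05 and a change of 2-fold or more. Of 20 HOX genes tested, 15 were called lower and 1 higher, where the background over all 15333 genes was 11.2% lower and 12.8% higher. The median log2 fold change was -1.59 over the HOX genes and 0.03 over all genes. All treated libraries lay below all control libraries for 15 HOX genes and above them for 1, where 30.6% and 26.9% of all genes did so.

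The group 4 gene HOXB4 fell the most among the highly expressed genes. Its level was 263, 319.8 and 267 CPM in the 3 control and 50.6, 61.9 and 43.96 CPM in the 3 treated GFP-positive libraries (log2 fold change -2.37, SE 0.17, adjusted p = 9.6e-14). The 3 treated values were far below the lowest control value. Its paralogs HOXA4, HOXC4 and HOXD4, which with HOXB4 mark the hindbrain to spinal cord boundary, also fell, by 1.56, 1.4 and 1.95 on the log2 scale. HOXA4 read 52.4, 59.3 and 57.04 CPM in control and 19.1, 20.8 and 14.6 CPM in treated libraries, without overlap. Of the HOXA4 exons, 31.3% are shared with another same-strand locus. HOXC4 read 112, 123 and 125 CPM in control and 44.1, 48.3 and 37.8 CPM in treated libraries. HOXD4 read 37.1, 58.3 and 51.5 CPM and 11.2, 11.99 and 13.2 CPM, with control replicate 1 lower than the other controls and still above all treated libraries.

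Group 3, expressed up to the hindbrain, held HOXB3, the HOX gene with the highest CPM in control GFP-positive libraries. HOXB3 was at 361, 373 and 365 CPM in control and 83.02, 90.4 and 88.1 CPM in treated GFP-positive libraries (log2 fold change -2.005, SE 0.16, adjusted p = 9.1e-13). HOXD3 went from 162, 175 and 183 CPM to 37.6, 37.8 and 30.6 CPM (log2 fold change -2.23, SE 0.17, adjusted p = 2.5e-13). HOXA3 went from 131, 114 and 120.3 CPM to 33.3, 42.7 and 30.2 CPM (log2 fold change -1.72, SE 0.17, adjusted p = 3e-10). For these 3 paralogs the libraries of a group stayed close to one another and far from the other group.

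Group 2 fell the least among groups 1 to 5, with both members between -1.11 and -1.02 on the log2 scale. HOXB2, a hindbrain gene, was at 219, 234 and 197 CPM in control and 95.1, 111 and 101 CPM in treated libraries (log2 fold change -1.02, SE 0.16, adjusted p = 1.9e-06). The values did not overlap, but the fold change dropped under 2 with library size as the only scaling (log2 -0.905) and with the GC trend removed (-0.734), and also without control GFP-positive replicate 2 (-0.962) or treated GFP-positive replicate 1 (-0.974). HOXA2, which patterns the second pharyngeal arch and hindbrain, was at 20.02, 17.7 and 16.7 CPM and 7.32, 10.96 and 5.77 CPM, and it also lost the fold limit without treated GFP-positive replicate 3 (-0.92).

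HOXD1 and HOXB1, which act in the early hindbrain, fell by similar amounts. HOXD1 was at 6.49, 6.11 and 5.69 CPM in control and 1.65, 1.57 and 2.04 CPM in treated libraries (log2 fold change -1.73, SE 0.27, adjusted p = 2.3e-06), and 52.4% of its exons overlap an opposite-strand locus. HOXB1, which specifies facial motor neurons, was at 2.09, 4.23 and 3.04 CPM and 0.78, 1.29 and 0.583 CPM (log2 fold change -1.76, SE 0.36, adjusted p = 0.00011). All treated libraries were below all controls for both genes.

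Group 5 genes are expressed in the cervical and brachial cord. HOXC5 had the largest fitted fall of all HOX genes, from 0.857, 0.985 and 1.5 CPM to 0.27, 0.172 and 0.053 CPM (log2 fold change -2.69, SE 0.53, adjusted p = 5.9e-05), at few counts and with 67.3% of its exons shared with another same-strand locus. With this SE its fall does not separate from those of HOXB4 (-2.37) and HOXA5 (-2.31). It passed the count filter only through the control libraries, so its test depended on the fall. HOXA5 went from 9.77, 11.6 and 11.5 CPM to 1.44, 2.58 and 2.3 CPM (log2 fold change -2.31, SE 0.25, adjusted p = 2.1e-09). HOXB5 fell less, from 91.97, 112 and 89.2 CPM to 40.5, 43.1 and 29.6 CPM (log2 fold change -1.31, SE 0.18, adjusted p = 1.5e-07). None of these genes overlapped between groups.

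Of the 5 tested genes of groups 6 to 13, only HOXB9 was called in GFP-positive cells. HOXA7 was at 0.559, 0.724 and 0.704 CPM in control and 0.72, 0.2 and 0.0265 CPM in treated libraries (log2 fold change -1.03, SE 0.58, adjusted p = 0.13). Treated replicate 1 lay within the range of the controls and the other treated libraries below it, and without replicate 1 HOXA7 was called lower (log2 -2.48, adjusted p = 0.0031, edgeR). HOXB8 was at 1.01, 0.434 and 0.512 CPM in control and 0.18, 0.286 and 0.556 CPM in treated libraries, and HOXD8 at 0.41, 0.492 and 0.96 CPM and 0.6, 0.315 and 0.265 CPM, each with overlap between the groups. HOXB7, HOXB8 and HOXD8 had log2 fold changes of -0.25, -0.82 and -0.60, with adjusted p of 0.7, 0.18 and 0.32. HOXA7 shares 62.5% of its exons with the antisense transcript HOXA-AS3, and HOXD8 24.4% with HOXD-AS2. Counting by strand was not given in the sources used here, so sense and antisense reads cannot be told apart for these genes.

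In GFP-negative cells treatment was likewise followed by lower HOX levels, with 14 of 21 tested genes called lower and 1 higher, against a background of 9.75% lower and 8.59% higher among 15513 genes. The median was -1.34 over the HOX genes and -0.01 over all genes on the log2 scale. Treated libraries lay entirely below controls for 17 HOX genes and entirely above for 1, where 22.6% and 24.0% of all genes did so. Of groups 1 to 5, 12 of 15 genes were called lower, and these 12 were also called lower in GFP-positive cells. The comparisons share no library, but both fractions were sorted from the same cultures.

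HOXB4 again led the highly expressed genes, from 211, 227 and 222 CPM in control to 56.5, 64.8 and 54.996 CPM in treated GFP-negative libraries (log2 fold change -1.93, SE 0.15, adjusted p = 3.4e-05). HOXA5 had the largest fall, from 8.05, 6.75 and 9.02 CPM to 1.38, 2.47 and 1.49 CPM (log2 fold change -2.17, SE 0.32, adjusted p = 0.00093). HOXB3 went from 137, 212 and 209 CPM to 45.8, 68.01 and 50.8 CPM (log2 fold change -1.78, SE 0.22, adjusted p = 0.00042). Control replicate 1 of HOXB3 was lower than the other controls yet above all treated libraries. HOXD4 went from 26.04, 38.6 and 44.4 CPM to 16.2, 13.4 and 16.1 CPM, and HOXC4 from 81.3, 82.6 and 83.8 CPM to 40.1, 39.4 and 30.4 CPM, without overlap. HOXD3 went from 75.5, 102 and 97.6 CPM to 27.2, 33.6 and 22.05 CPM. HOXC4, HOXD3 and HOXD4 fell by 1.19, 1.75 and 1.27 on the log2 scale, and, also without overlap between groups, HOXC5, HOXB1, HOXA3, HOXA4, HOXA2 and HOXB5 by 1.89, 1.59, 1.5, 1.43, 1.34 and 1.3.

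HOXB2 and HOXD1 were not called in GFP-negative cells. HOXB2 was at 171, 166 and 149 CPM in control and 93.6, 82.01 and 91.8 CPM in treated libraries (log2 fold change -0.88, adjusted p = 0.0017, under the fold limit). HOXD1 was at 4.5, 4.49 and 5.15 CPM and 2.68, 3.16 and 3.29 CPM (log2 fold change -0.65, adjusted p = 0.087). In both genes the treated values were still below all control values.

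HOXA7 and HOXB8, genes of the brachial cord, were called lower in GFP-negative cells, at low counts. HOXA7 went from 2.13, 2.47 and 2.36 CPM to 0.432, 1.27 and 0.956 CPM (log2 fold change -1.39, SE 0.41, adjusted p = 0.028). HOXB8 went from 1.05, 0.881 and 1.56 CPM to 0.475, 0.254 and 0.425 CPM (log2 fold change -1.61, SE 0.45, adjusted p = 0.022). Both calls were lost when single libraries were left out, that of HOXA7 without replicate 2 of the controls or replicates 1 or 3 of the treated libraries (adjusted p of 0.097, 0.096 and 0.085), and that of HOXB8 without control replicate 3 or any treated replicate (0.054 to 0.085). HOXB7, HOXD8 and HOXD9 were not called, with log2 fold changes of 0.34, 0.42 and -0.04.

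**Figure D3:**
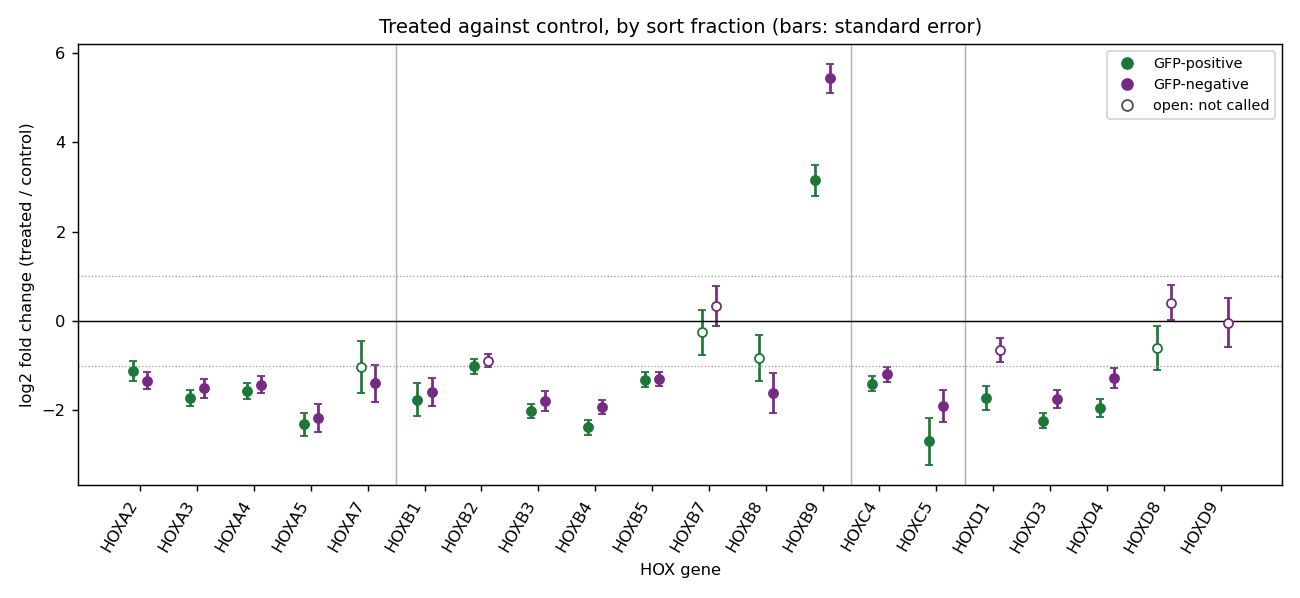
The log2 fold change of treated against control libraries is plotted for tested HOX genes, ordered by cluster and paralog number, in GFP-positive (green) and GFP-negative (purple) cells, with standard errors as bars, open symbols for genes not called and dotted lines at the fold limit. The plotted genes of groups 1 to 5 lie below 0, and HOXB9 is the only gene called higher, at 3.16 and 5.43. HOXB7 and HOXD8 lie above 0 in GFP-negative cells, at 0.34 and 0.42, without a call.

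HOXB9, of the paralog group expressed in the thoracic cord, was the single HOX gene called higher, and it was so in both fractions. In GFP-negative libraries it was counted 17, 10 and 13 times in the controls and 550, 471 and 539 times after treatment, or 0.558, 0.294 and 0.519 CPM and 23.7, 17.1 and 19.1 CPM (log2 fold change 5.43, SE 0.32, adjusted p = 1.1e-05). In GFP-positive libraries it was counted 9, 19 and 27 times in the controls and 211, 137 and 184 times after treatment, or 0.336, 0.55 and 0.864 CPM and 6.33, 3.92 and 4.87 CPM (log2 fold change 3.16, SE 0.35, adjusted p = 2e-09). Every treated library was above every control library, and each treated GFP-negative library was above each treated GFP-positive one. In GFP-negative cells HOXB9 passed the count filter only through the treated libraries, since control replicate 2 was too low for its library size. Its test there thus depended on the rise, while in GFP-positive cells the controls alone passed the filter. On CPM per kb HOXB9 moved from the last place of 19 genes in control GFP-negative libraries to the seventh after treatment, where it overlapped HOXA4, HOXD3, HOXB3 and HOXA3 at 7.73 ± 1.32 CPM per kb. With the length of the canonical transcript HOXB9 was at place 10 in these treated libraries, so its place depends on the length used. In treated GFP-negative libraries HOXB9 made up 82.5 ± 5.05% of the CPM of groups 6 to 13.

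The HOXB9 gene lies at chr17:48621156-48626358 on the minus strand (GRCh38, GENCODE release 44), inside the annotated span of HOXB7 (chr17:48607232-48633572), and its exons overlap those of no other annotated gene. HOXB8, whose 3′ end is the closest within the cluster, was lower in GFP-negative cells, HOXB7 was not called in either fraction, and HOXB13 stayed at or under 3 counts in every library. Along the cluster, HOXB1 to HOXB5, with 3′ ends at 0 to 62.7 kb from that of HOXB1, were called lower in both fractions, except HOXB2 in GFP-negative cells, and HOXB9 at 92.6 kb was higher. The genes that flank the HOXB cluster were looked up after the HOX values were seen, and only those beyond HOXB13 are given here. Over all genes tested, 11.2% were called lower and 12.8% higher in GFP-positive cells, and 9.75% and 8.59% in GFP-negative cells. TTLL6, a tubulin polyglutamylase gene 33.5 kb beyond HOXB13, was called lower in both fractions (log2 fold changes -1.76 and -1.30, adjusted p of 5.4e-08 and 0.0069 by edgeR), and CALCOCO2, an autophagy receptor gene at 102.3 kb, higher in both (1.13 and 1.84, adjusted p of 1.9e-06 and 7.4e-05).

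**Figure D4:**
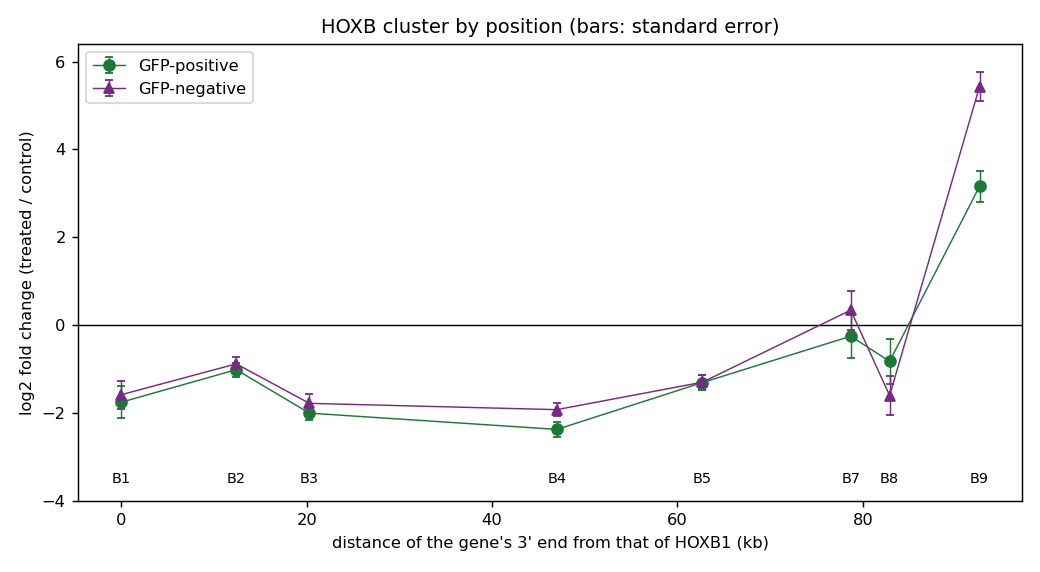
The log2 fold change (treated against control, bars are standard errors) is plotted against the distance in kb of each tested HOXB gene's 3′ end from that of HOXB1, for GFP-positive (circles) and GFP-negative (triangles) cells. HOXB1 to HOXB5 lie below 0 in both fractions and HOXB9, at 92.6 kb, lies at 3.16 and 5.43.

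HOX levels were also compared between the sort fractions. In control cells, 0 of 20 tested HOX genes were called higher and 3 lower in GFP-positive than in GFP-negative libraries (edgeR), while the background was 7.47% higher and 15.3% lower of 15404 genes. At an unadjusted p under 0.05, 5 were higher and 4 lower, and DESeq2 also called 0 higher. HOXC5 was at 0.857, 0.985 and 1.5 CPM in GFP-positive and 3.19, 4.26 and 4.43 CPM in GFP-negative controls (log2 fold change -1.93, SE 0.33, adjusted p = 0.0013). HOXA7 (log2 fold change -1.90, SE 0.33, adjusted p = 0.0013) and HOXB1 (log2 fold change -1.23, SE 0.29, adjusted p = 0.0071) were the others called lower. With the adjusted p alone, 8 HOX genes passed. HOXB3 and HOXD3 passed the adjusted p but not the fold limit, with log2 differences of 0.87 (adjusted p = 0.004) and 0.81 (adjusted p = 0.0023), and were the HOX genes most in favour of the GFP-positive cells. HOXA3 (0.49, adjusted p = 0.016), HOXC4 (0.43, 0.024) and HOXA2 (-0.60, 0.018) also passed it without the fold limit. HOXB9 showed no call (log2 fold change 0.26, SE 0.50, adjusted p = 0.71).

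In treated cells, 0 of 20 HOX genes were called higher and 5 lower in GFP-positive libraries, with a background of 10.0% higher and 13.7% lower of 15416 genes (edgeR). At an unadjusted p under 0.05, 1 was higher and 7 lower, and DESeq2 also called 0 higher. HOXB9 had a log2 difference of -1.96 (SE 0.23, adjusted p = 2e-05, edgeR). HOXC5 (-2.69), HOXB7 (-1.47), HOXB1 (-1.36) and HOXD8 (-1.32) were also called, with adjusted p of 0.0015, 0.015, 0.011 and 0.025. HOXB7 lies outside the naming rule and is named after its values were seen. HOXB1 lost the call without treated GFP-negative replicate 2 (adjusted p = 0.055). HOXB7 lost it without treated GFP-negative replicate 2 or treated GFP-positive replicate 3. HOXD8 lost it without treated GFP-negative replicate 1 or 2 or treated GFP-positive replicate 2 or 3 (adjusted p of 0.078 to 0.09). With single libraries left out, 2 to 6 genes were called. HOXC5, HOXB7 and HOXD8 passed the count filter in this contrast only through the GFP-negative libraries. With the culture as a block HOXA7 was called as well (log2 -1.72, adjusted p = 0.017). In this contrast 5 of 7 motor neuron markers were called higher and 4 of 4 cycling cell markers lower.

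**Figure D5:**
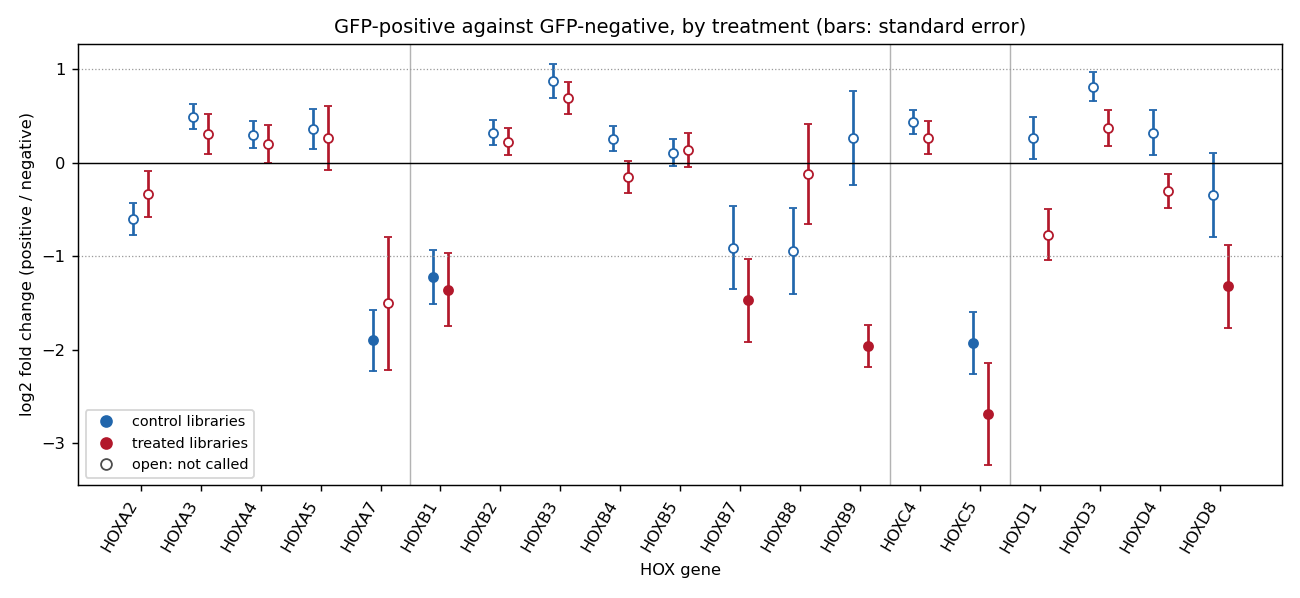
The log2 fold change of GFP-positive against GFP-negative libraries is plotted for tested HOX genes in control (blue) and treated (red) libraries, with standard errors as bars and open symbols for genes not called. Most genes lie near 0 in both, HOXC5 is lowest at -1.93 and -2.69, and HOXB9 is at 0.26 in control and -1.96 in treated libraries.

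The interaction of treatment and sort fraction asked whether the treatment effect differed between the fractions, with no fold limit. Of 21 HOX genes tested, 1 was called, HOXB9, with a smaller rise in GFP-positive than in GFP-negative cells (log2 fold change -2.36, SE 0.47, adjusted p = 0.017), and 0 were called in the other direction, while 1.22% and 0.968% of 16226 genes were called negative and positive. At an unadjusted p under 0.05, 6 HOX genes were negative and 0 positive, and DESeq2 also called 0 positive. The call of HOXB9 was lost without control GFP-negative replicate 2, control GFP-positive replicate 2 or 3, treated GFP-negative replicate 1 or treated GFP-positive replicate 3 (adjusted p of 0.053 to 0.059, edgeR). With the culture as a replicate block, 3 HOX genes were called, HOXB9 (log2 -2.34, adjusted p = 0.0031), HOXD1 (-1.17, 0.037) and HOXD4 (-0.766, 0.032), the latter 2 with a larger fall in GFP-positive cells. Without the block HOXD1 had an adjusted p of 0.082. A p that misses the threshold does not show that the fractions responded alike.

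Genes that work with or upstream of HOX were read as lists. For these lists the background over all genes tested was 11.2% called lower and 12.8% higher in GFP-positive cells, and 9.75% lower and 8.59% higher in GFP-negative cells, with medians of 0.03 and -0.01. Of 9 TALE cofactors, which bind DNA together with HOX proteins, 4 were called in GFP-positive cells, all lower (median log2 fold change -0.85, background 11.2% lower), and 6 in GFP-negative cells, also all lower (median -1.06, background 9.75% lower). PBX3 fell from 158 ± 35.1 CPM to 37.3 ± 8.91 CPM in GFP-positive cells (log2 fold change -2.01, SE 0.19, adjusted p = 4.9e-11), and MEIS1 from 151 ± 13.4 CPM to 46.4 ± 4.72 CPM (log2 fold change -1.64, SE 0.17, adjusted p = 3.2e-10). MEIS2 and MEIS3 had log2 fold changes of -1.43 and -1.24, the latter at -0.715 with the GC trend removed. In GFP-negative cells PBX3, MEIS1 and MEIS2 were called lower (-1.48, -1.62 and -1.06) and MEIS3 was not (-0.51, adjusted p = 0.037). MEIS2 lost the call without control GFP-negative replicate 3 (-0.897).

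Of 18 caudalizing inputs, 9 were tested in GFP-positive cells, where 5 were called lower and 1 higher (median -1.19, background 11.2% and 12.8%), and 11 in GFP-negative cells, where 5 were called, all lower (median -1.17, background 9.75%). RXRG, a retinoid X receptor, fell from 433 ± 72.9 CPM to 74.2 ± 33.6 CPM in GFP-positive cells (log2 fold change -2.48, SE 0.21, adjusted p = 6e-12), and GDF11, a ligand that promotes caudal HOX genes, from 177 ± 8.93 CPM to 43.5 ± 4.27 CPM (log2 fold change -1.96, SE 0.16, adjusted p = 4.1e-12). RARB, itself a retinoic acid target, and RXRA fell by 1.63 and 1.51 on the log2 scale, and all 4 were lower in GFP-negative cells too (-1.93, -1.78, -1.64 and -1.02), RXRA without a call there when the GC trend was removed (-0.792), in the fit of all 12 libraries (-0.998) or without control replicate 2 or treated replicate 1 or 3 (-0.986 to -0.904). Named after their values were seen, RARA was the fifth gene called lower in GFP-positive cells (-1.19), FGF8 the one called higher (1.21, from 0.271 to 0.601 CPM), and CYP26A1, which degrades retinoic acid, the fifth called lower in GFP-negative cells (-3.03). FGF8 passed the count filter in GFP-positive cells only through the treated libraries, so its test depended on the rise. CDX1, CDX2 and CDX4, activators of caudal HOX genes, had group means of at most 0.0596 CPM, under the floor.

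The next lists cover the hindbrain and the territory rostral to HOX expression. Of the hindbrain list, 2 of 3 tested genes were called in GFP-positive cells and 2 of 4 in GFP-negative cells, all lower. GBX2, a factor of the anterior hindbrain, was among them (-1.18 and -1.39), and its GFP-positive call was lost without treated replicate 3 (-0.952), with the GC trend removed (-0.785) and with the replicate block as well (-0.817). Of 12 forebrain and midbrain genes, 2 were tested in GFP-positive cells and both were called higher, and 4 in GFP-negative cells with 1 called higher. EN2, of the midbrain-hindbrain boundary, went from 0.104 ± 0.079 CPM to 1.48 ± 0.832 CPM in GFP-positive (log2 fold change 3.93, SE 0.58, adjusted p = 7.6e-07) and from 0.798 ± 0.284 CPM to 3.21 ± 1.43 CPM in GFP-negative cells (log2 fold change 1.97, SE 0.46, adjusted p = 0.0096), the latter call lost without treated replicate 3 (adjusted p = 0.051). The control GFP-positive libraries read 0.186, 0.029 and 0.096 CPM of EN2, near the floor. EN2 thus passed the count filter in GFP-positive cells only through the treated libraries, and a fall could not have been called there. PAX6, which is also a gene of neural progenitors, went from 7.93 ± 1.84 CPM to 30.4 ± 3.78 CPM in GFP-positive cells (log2 fold change 2.01, SE 0.21, adjusted p = 5e-10) and was not called in GFP-negative cells (0.10). OTX2 and SIX3, which mark the most rostral neural tube, were too low to test in either fraction.

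Cranial motor neuron genes were expressed and fell. All 4 were called lower in GFP-positive cells, and all 3 that could be tested were lower in GFP-negative cells. PHOX2A, which specifies visceral and branchial motor neurons, went from 574 ± 102 CPM to 62.4 ± 20.7 CPM (log2 fold change -3.14, SE 0.20, adjusted p = 3.3e-15). TBX20 went from 9.37 ± 3.58 CPM to 0.236 ± 0.216 CPM (log2 fold change -5.18, SE 0.41, adjusted p = 8.5e-13). NKX6-2 had a log2 fold change of -2.10. PHOX2A and NKX6-2 changed by -2.99 and -1.37 in GFP-negative cells.

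Of the 11 genes of the spinal motor column code, 10 were tested in each fraction, with 6 called in GFP-positive cells (median -1.22, background 11.2% lower) and 3 in GFP-negative cells (median -0.15, background 9.75% lower), all lower. RUNX1 fell from 37.7 ± 6.26 CPM to 8.66 ± 2.6 CPM in GFP-positive cells (log2 fold change -2.05, SE 0.21, adjusted p = 5.5e-10) and was at 10.7 ± 1.73 CPM and 19.97 ± 1.64 CPM in control and treated GFP-negative cells (log2 fold change 0.89, under the fold limit except without control GFP-negative replicate 3, at 1.02). ETV4, a gene of motor pools, and NR2F1 fell by 1.85 and 1.76 on the log2 scale in GFP-positive cells, and were called in GFP-negative cells as well (-1.06 and -1.60), ETV4 there not with the GC trend removed (-0.827). MECOM had -1.33 in GFP-positive cells, a call lost without either of control replicates 1 and 2 or treated replicates 1 and 2. POU3F1, the third gene called in GFP-negative cells (-1.22), is named after its values were seen.

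Chromatin regulators of the clusters formed the longest list. Of 26 tested polycomb, trithorax and CTCF genes, 1 was called higher and 2 lower in GFP-positive cells (median -0.05), where 12.8% and 11.2% of all genes were, and 1 higher and 1 lower in GFP-negative cells (median -0.29), where 8.59% and 9.75% were. CBX2, a polycomb reader subunit, fell in both fractions (-1.06 and -1.61), without the GFP-positive call when library size was the only scaling (-0.943), when the GC trend was removed (-0.694) or without control GFP-positive replicate 2 (-0.969). PHC2 was called lower in GFP-positive cells (-1.25, -0.863 with the GC trend removed) and not in GFP-negative cells (-0.32).

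Noncoding RNAs of the HOX clusters, 20 listed and 17 in the table, were tested for 7 genes in GFP-positive and 8 in GFP-negative cells, with 3 called in each, all lower (medians -0.82 and -0.74). HOXA-AS2 fell from 6.27 ± 1.4 CPM to 1.82 ± 0.58 CPM in GFP-positive cells (log2 fold change -1.72, SE 0.29, adjusted p = 7.1e-06) and by 1.27 on the log2 scale in GFP-negative cells. It overlaps 10.6% of the exons of HOXA3 and 14.7% of those of HOXA4 on the opposite strand. Sense and antisense reads cannot be told apart there either. HAGLROS had -1.07 and -1.05, under the fold limit with the GC trend removed (-0.655 and -0.786). Its GFP-positive call was also lost without control replicate 2 or treated replicate 3, and its GFP-negative call without control replicate 1 or 2 or treated replicate 1 or 3. Named after their values were seen, LINC01116 was the third called in GFP-positive cells (-2.70) and HOXB-AS1 the third in GFP-negative cells (-1.03). HOTAIR and HOTTIP, transcribed from the caudal ends of HOXC and HOXA, had no counts.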

How the data were processed

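RNA from 12 sorted samples was sequenced after an Illumina stranded mRNA preparation, and the authors deposited 1 table of raw read counts per gene. Per the published methods and the submitters' processing notes, lanes were joined, reads were checked with FASTQC, single-end reads were aligned to hg38 with HISAT2 and counts were made with featureCounts on Ensembl genes. Its version, strand setting and treatment of reads with several hits are not given in the sources used here. Groups came from the sample labels. Totals ran from 23414935 to 38347050 counts per library (median 31553596), so 3 counts, taken as the floor, equal 0.0794 to 0.129 CPM.

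The deposited counts were fitted with edgeR 4.0.16 (R 4.3.3): filterByExpr (minimum count 10, minimum total 15), TMM scaling, quasi-likelihood F-test on the libraries compared (all 12 for the interaction) and Benjamini-Hochberg adjustment over all genes tested. The filter keeps a gene that reaches the minimum count, scaled to library size, in as many libraries as a group holds. A gene can thus pass through a single group, and its test then depends on the level there. Among others, this also held for the falls of HOXB8 and CYP26A1 in GFP-negative cells and of TBX20 and MECOM in GFP-positive cells. CPM per kb used the union of exons in GENCODE release 44, where 25490 of 28278 symbols matched. HOX genes with a mean of at least 1 CPM in a group were named, and list genes by the size of the change among those called; other names were chosen after their values were seen. Some genes that meet these rules are not reported here. The members and lists were chosen with earlier results of these data known. A biological replicate is an independent thaw of 1 line, so p-values measure the spread between thaws. Replicates of every group differed by more than sampling noise (chi-square per degree of freedom of 23.6 to 116).

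Same-numbered sort fractions deviated together over 13368 genes (r of 0.45, 0.16 and 0.48 in control and 0.20, 0.28 and 0.55 in treated cultures), which pairs the sort contrasts. The values given for the sort contrasts and the interaction are from fits without this pairing, except where a block is named. Same-numbered treated and control libraries did not all deviate together. Alternatives were RLE scaling, library size alone, other low-count filters, DESeq2 1.42.0, a fit of all 12 libraries, a replicate block, removal of the GC trend (loess, span 0.5), both together and leaving out each library. The scripts were tested on simulated data. Figures were drawn with matplotlib 3.10.9.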

Additional observations from a re-analysis of the deposited data

Results flagged for a closer look

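For 4 genes the treatment effect differed between the fractions in the interaction test of edgeR without the replicate block, where values are the log2 effect in GFP-positive minus that in GFP-negative cells. With the block, HOXD1 and HOXD4 were called as well. HOXB9 differed by -2.36 (adjusted p = 0.017), with a rise in both fractions that was smaller in GFP-positive cells. RUNX1 differed by -3.03 (adjusted p = 8.2e-05), with a fall called in GFP-positive cells. PHC2 differed by -1.02, with a fall called in GFP-positive cells. PAX6 differed by 1.81 (adjusted p = 0.0022), with a rise called in GFP-positive cells.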

How the results depend on the processing

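Of the counts of HOX genes called, those lower after treatment stayed at 14 to 15 in GFP-positive and 12 to 14 in GFP-negative cells with single libraries left out. With at least 10 counts in every library HOXB9 was not tested in GFP-positive cells, since a control library has 9, so 0 genes were higher there; the same filter left 3 lower in the treated sort contrast and 0 in the interaction. Leaving out single libraries gave 2 to 6 in the treated sort contrast and 0 to 1 in the interaction. The interaction gave 2 genes with DESeq2, 3 with the replicate block and 3 with the block and the GC trend removed. In the treatment contrasts the numbers did not pair the libraries, and the block left 15 lower in GFP-positive and 14 in GFP-negative cells. Without the GC step the block changed no call of a named gene other than HOXA7 in the treated sort contrast and HOXD1 and HOXD4 in the interaction. Library size alone moved the median of all genes in GFP-positive cells from 0.03 to 0.14. Signs turned for small differences. In the treated sort contrast HOXB4 was 0.00857 with library size alone, 0.122 with the GC trend removed and 0.118 with the block as well, HOXB8 was 0.0415, 0.149 and 0.0973 under the same settings, and HOXD4 was 0.0236 and 0.0192 under the latter 2. In the interaction, library size alone gave 0.0256 for HOXA4, 0.0247 for HOXA5, 0.0361 for HOXB2 and 0.164 for HOXB5, and HOXB5 was 0.0669 with at least 10 counts in every library and 0.00729 with the GC trend removed. Leaving out libraries gave -0.36 to 0.0907 for MECOM in GFP-negative cells, -0.126 to 0.532 for HOXB9 in the control sort contrast and -0.7 to 0.143 for HOXB8 in the treated one, and in the interaction -0.15 to 0.491 for HOXA2, -0.336 to 0.0707 for HOXA4, -0.395 to 0.136 for HOXA5, -0.997 to 1 for HOXA7, -0.628 to 0.135 for HOXB1 and -0.202 to 0.215 for HOXB5. The mean paralog number in control GFP-positive, treated GFP-positive, control GFP-negative and treated GFP-negative libraries was 3.3, 3.27, 3.35 and 3.53 without division by length, 3.56, 3.54, 3.6 and 3.64 with clusters weighted equally, and 3.35, 3.28, 3.39 and 3.49 with the canonical transcript length, an alternative chosen after seeing the data. It was 3.63 in treated GFP-negative libraries over genes of at least 1 CPM, and without HOXB9, also chosen afterwards, 3.36 in treated GFP-positive and 3.41 in treated GFP-negative libraries. The causes of these shifts were not tested.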

Other observations

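Genes on both sides of the other HOX clusters were looked up after the HOX values were seen, and only 1 of them is given here. Over all genes tested, 11.2% were called lower in GFP-positive and 9.75% in GFP-negative cells. EVX1, a homeobox gene 42.6 kb beyond HOXA13, was called lower after treatment in both fractions (log2 fold changes -1.89 and -2.07, edgeR).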
